A study of Mus musculus with 16 samples.

Results

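The genes described here are 29 genes of cholesterol synthesis and other targets or regulators of the sterol regulatory element-binding proteins (SREBPs), taken by name from the annotation on the arrays. All 29 names were found, on 41 of the 55681 probes that were not controls, and all 29 passed the filter on dim probes, among 22648 gene names tested. They were measured in heart RNA of C57BL/6 mice put in a wire mesh box in the cage of an aggressor, where they were also attacked, a social defeat procedure used as a model of posttraumatic stress disorder. The design varied the number of days of exposure before a rest of 1 day. T1R1 had 1 day of exposure, T2R1 had 2 days and T3R1 had 3 days, and control mice sat in the same boxes in a cage with no aggressor. Each group had 4 arrays, 1 per animal. The labels give the control hearts the same duration, 2 days with 1 day of rest, as T2R1, so T1R1 and T3R1 have no control of their own duration. The general treatment text speaks of 6 hours a day for 5 or 10 days, which differs from the group names, and the group names were followed.

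Cholesterol is built from acetyl-CoA through mevalonate, the isoprenoid farnesyl diphosphate, squalene and lanosterol, and nearly every enzyme of the route is transcribed under the control of SREBPs. These factors are made as precursors in the membrane of the endoplasmic reticulum, where Scap escorts them to the Golgi for cleavage when sterols are scarce and the Insig proteins hold Scap back when sterols are plentiful. The product of Srebf2 acts mainly on sterol genes and that of Srebf1 mainly on fatty acid synthesis and desaturation. The heart makes little cholesterol compared with the liver and takes up much of its fatty acid from the blood, and fat depots lie on the surface of the heart and around the great vessels.

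SREBPs bind short sterol regulatory elements, usually beside sites of the factors NF-Y and Sp1. The RefSeq promoter windows of build GRCm38.p6, from 250 bases before to 50 bases after each start, covered 22 of the 29 genes in 30 windows. They were searched on both strands for the element TCACNCCAC, for CCAAT (the core of an NF-Y site), for GGGCGG (the core of an Sp1 site) and for the E-box CACGTG. The first was found in 1 gene, Hmgcs1, and in 1.24% of all 32851 promoter windows. The promoter of Hmgcs1, at chr13:119690101-119690400 on the plus strand, is shown because it is the only one of the 22 with that match and its gene was called in 4 of the comparisons below; the capitals mark the match, which starts 137 bases before the gene start.
Hmgcs1 promoter: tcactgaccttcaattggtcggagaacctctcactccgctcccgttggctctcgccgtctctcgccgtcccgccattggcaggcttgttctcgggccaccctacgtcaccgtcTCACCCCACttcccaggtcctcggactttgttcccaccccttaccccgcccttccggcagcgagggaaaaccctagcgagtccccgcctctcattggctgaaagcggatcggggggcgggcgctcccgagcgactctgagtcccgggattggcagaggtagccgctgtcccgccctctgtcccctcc
CCAAT was found in 20 of the 30 windows, or 66.7%, and in 37.4% of all windows. GGGCGG was found in 24, or 80%, against 35.7% of all windows, and CACGTG in 6, or 20%, against 7.15%. None of these motifs contains another. A match is a run of letters in the window and no site of binding was measured.

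Levels below are log2 values of the spot intensity after subtraction of the 75th percentile of each array, so a level of 0 is the brightness of that percentile and a difference of 1 is a doubling of the signal. Levels of different genes come from different probes and are not set against each other. Tests are limma's moderated test across all 22648 names with Benjamini-Hochberg adjustment, and a gene is called at an adjusted p below 0.05. The 14 cardiomyocyte markers were well above background on every array. From 46.5% to 67.1% of the spots were well above background on an array. T1R1 and T2R1 were hybridised on one slide and T3R1 and control on the other, so slide and group cannot be told apart in T1R1 or T2R1 against control and in T3R1 against T1R1 or T2R1. T3R1 against control and T2R1 against T1R1 lie within a slide.

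Control replicate 1 stood apart from the other control hearts. Over all genes it had a mean correlation of 0.988 with the T3R1 arrays and 0.970 with control replicates 2 to 4, and its 75th percentile was 547 scanner units, against 257 to 273 in those replicates. Among the 29 sterol and SREBP-target genes, 23 (79.3%) were higher in control replicate 1 than in every other control heart, and 3 were lower. Of all genes with a value on every array, 27.0% were higher there and 52.7% lower. It was the highest of the 16 arrays for 17 of the 29 genes. The results of the 29 genes against control are therefore given with and without it.

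The genes were highest on the T3R1 arrays and on control replicate 1, as the map of all 29 genes shows. The median over the 29 genes of the difference from each gene's own mean over 16 arrays lay between 0.22 and 0.29 on the 4 T3R1 arrays and was 0.55 on control replicate 1. It lay between -0.48 and 0.11 on the T1R1 arrays, between -0.21 and -0.01 on the T2R1 arrays and between -0.07 and 0.04 on control replicates 2 to 4. T1R1 replicate 3 was the lowest array for 15 of the 29 genes. It also had the smallest share of spots well above background, 46.5%, and the most outlier spots, 288.

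**Figure D1:**
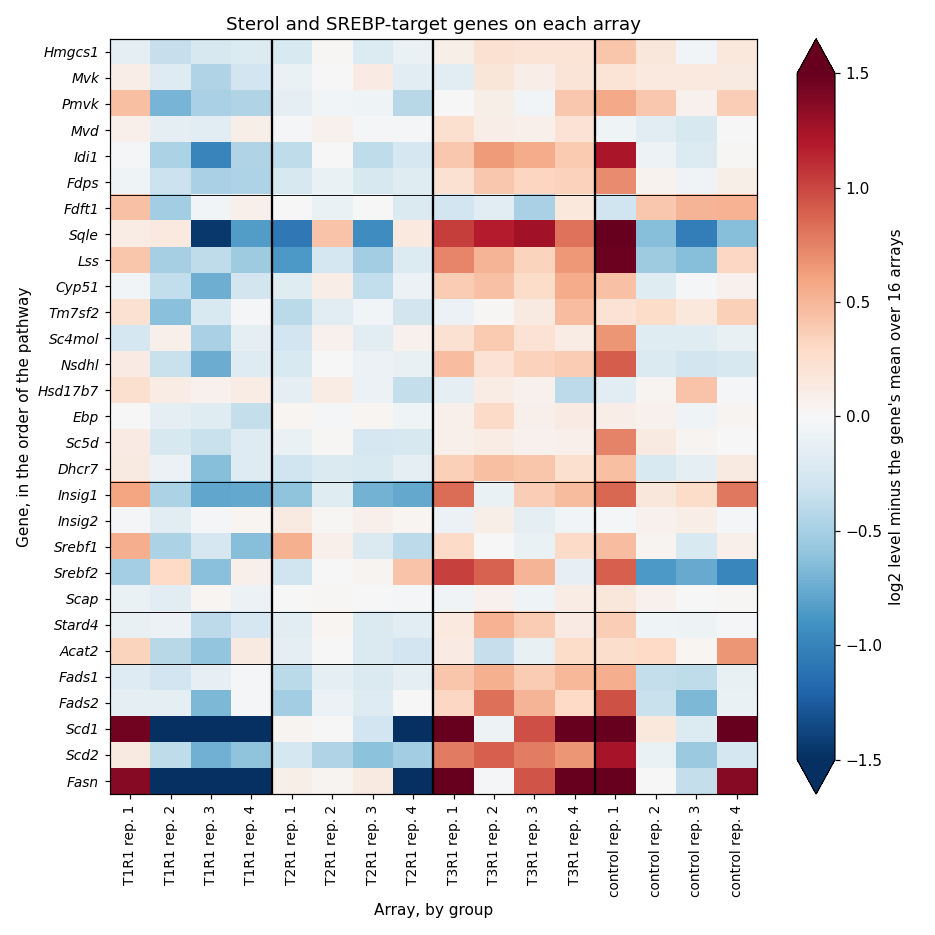
Log2 level of each of the 29 genes (rows, in pathway order) on each of the 16 arrays (columns, by group), as the difference from the gene's mean over 16 arrays; colours are capped at 1.5 in either direction. The 4 T3R1 columns and control replicate 1 are mostly red, and the rows of Scd1 and Fasn vary widely within groups.

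The first question of the design is how hearts after 3 days of exposure differ from those after 1 day. In T3R1 against T1R1, 10 of the 29 genes rose and 0 fell, where 7.63% of all genes rose and 15.3% fell. The 10 were Hmgcs1, Idi1 and Fdps of the mevalonate and isoprenoid steps, Sqle, Cyp51, Ebp and Dhcr7 of the sterol steps, the sterol carrier Stard4, and the fatty acid desaturases Fads1 and Scd2. The log2 fold change was above 0 for 27 of the 29 genes, with a median of 0.50, while the median of all genes was -0.07. For 13 of the 29 all T3R1 arrays lay above all T1R1 arrays, as they did for 9.54% of all genes. Without T1R1 replicate 1 the calls numbered 16, and without the other arrays of these groups between 7 and 10. Unless a share of all genes stands beside them, counts of calls without 1 array show only how the calls depend on single arrays.

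In T3R1 against T2R1, 9 of the 29 rose and 0 fell, where 6.57% of all genes rose and 20.4% fell. Of these, 8 were also called against T1R1, namely Hmgcs1, Idi1, Fdps, Cyp51, Dhcr7, Stard4, Fads1 and Scd2, and the ninth was Insig1. Both comparisons use the same T3R1 arrays. The median log2 fold change was 0.42 over the 29 genes and -0.09 over all genes, and 27 of the 29 values were above 0. All T3R1 arrays lay above all T2R1 arrays for 17 of the 29, against 12.4% of all genes. The calls numbered 4 without T2R1 replicate 3, 5 without T2R1 replicate 4 and between 6 and 9 without any other array of these groups. In T2R1 against T1R1, 0 of the 29 and 0% of all genes were called by limma, with 0 of the 29 and 7.84% of all genes at an unadjusted p below 0.05.

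**Figure D2:**
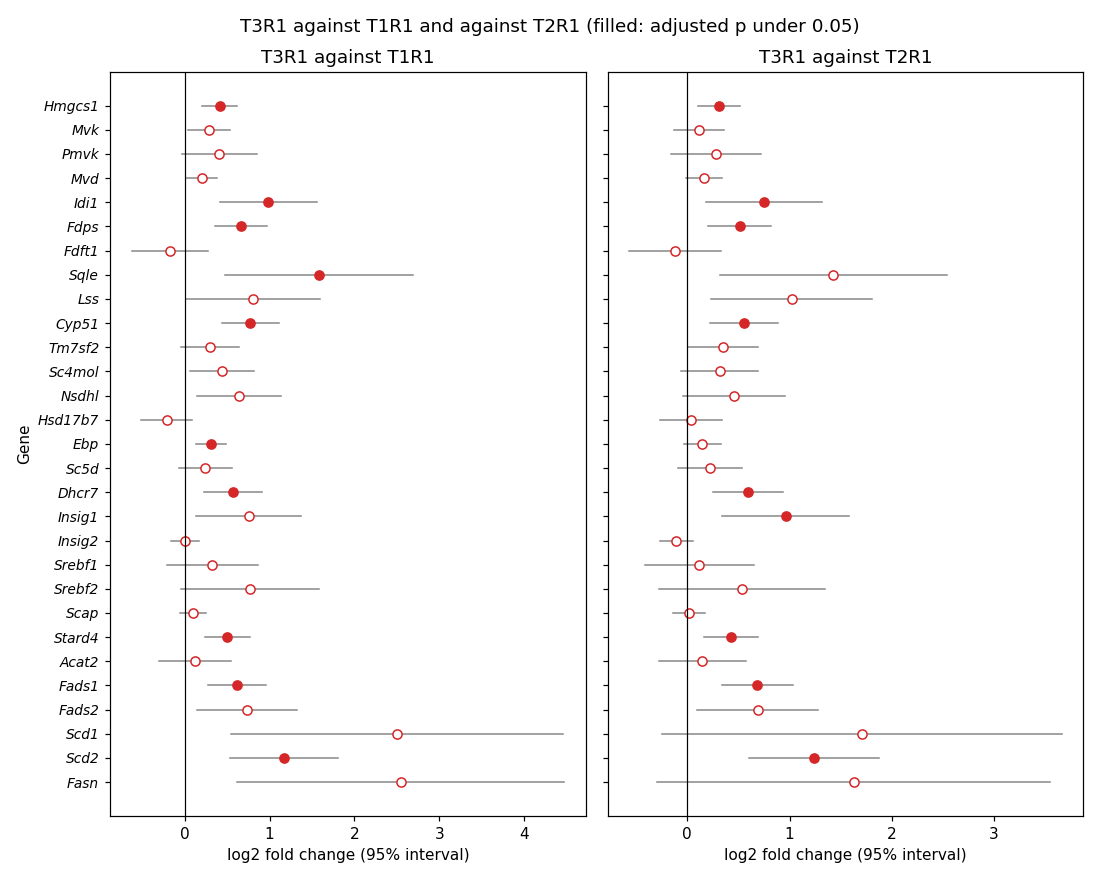
Log2 fold change of each of the 29 genes in T3R1 against T1R1 (left) and against T2R1 (right), with 95% intervals; filled points have an adjusted p below 0.05. Nearly all points lie right of 0, Scd1 and Fasn have the widest intervals, and 10 points on the left and 9 on the right are filled.

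The early steps make isoprenoid units from acetyl-CoA. Hmgcs1, the HMG-CoA synthase that condenses acetyl-CoA with acetoacetyl-CoA, had log2 levels of 2.83, 2.63, 2.73 and 2.77 on the T1R1 arrays, 2.74, 2.99, 2.76 and 2.87 on the T2R1 arrays, 3.05, 3.20, 3.18 and 3.17 on the T3R1 arrays and 3.39, 3.14, 2.93 and 3.13 on the control arrays. All T3R1 values lay above all T1R1 and all T2R1 values, and 3 of the 4 control arrays lay within or above the T3R1 range. Hmgcs1 was 1.33-fold higher in T3R1 than in T1R1 (log2 0.41 ± 0.10, SE, adjusted p = 0.0079) and 1.24-fold higher than in T2R1 (log2 0.31 ± 0.10, adjusted p = 0.0292). The first call held with any 1 array left out and was lost in the authors' processed values (adjusted p = 0.0665), and the second was lost in 6 of 8 fits without 1 array. Its probe is placed by the array design on an unplaced fragment of chromosome 13, chr13_random:114793-114852 of build mm9, to which all probe positions here refer.

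Idi1, the isomerase that interconverts the isopentenyl and dimethylallyl units, had log2 levels of 0.26, -0.18, -0.70 and -0.17 on the T1R1 arrays, -0.09, 0.28, -0.09 and 0.04 on the T2R1 arrays, 0.69, 0.93, 0.85 and 0.68 on the T3R1 arrays and 1.52, 0.21, 0.09 and 0.31 on the control arrays. The T3R1 arrays were tight and above every T1R1 and T2R1 array, and control replicate 1 was the highest of all 16. Idi1 was 1.98-fold higher in T3R1 than in T1R1 (log2 0.99 ± 0.27, adjusted p = 0.0164), a call lost without T1R1 replicate 3 (adjusted p = 0.0506). Against T2R1 the log2 change was 0.75 ± 0.27 (adjusted p = 0.0484), and this call was lost whichever array was left out.

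Fdps, the farnesyl diphosphate synthase at the branch between sterols and the isoprenoids attached to proteins, had log2 levels of 2.95, 2.70, 2.53 and 2.56 on the T1R1 arrays, 2.78, 2.92, 2.78 and 2.83 on the T2R1 arrays, 3.24, 3.42, 3.35 and 3.36 on the T3R1 arrays and 3.73, 3.07, 2.96 and 3.11 on the control arrays. Again every T3R1 value lay above every T1R1 and T2R1 value, and control replicates 2 to 4 lay between the T3R1 arrays and all of those. Fdps was 1.58-fold higher in T3R1 than in T1R1 (log2 0.66 ± 0.14, adjusted p = 0.00513) and 1.43-fold higher than in T2R1 (log2 0.52 ± 0.14, adjusted p = 0.0166), and both calls held with any 1 array left out. Mvk and Pmvk, the kinases that phosphorylate mevalonate, and Mvd, the decarboxylase after them, were not called in these comparisons. Their log2 changes in T3R1 against T1R1 were 0.29 ± 0.12 for Mvk, 0.41 ± 0.21 for Pmvk and 0.20 ± 0.08 for Mvd. The second probe of Mvk gave 0.31 with an adjusted p of 0.0419 over all kept probes. Acat2, the cytosolic thiolase that makes acetoacetyl-CoA, had 0.12 ± 0.20 and was not called.

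Squalene is formed by Fdft1 and oxidised by Sqle, and the 2 genes did not run together. Sqle, the squalene monooxygenase and a slow step of the route, had log2 levels of -0.73, -0.69, -2.29 and -1.68 on the T1R1 arrays, -1.92, -0.42, -1.77 and -0.70 on the T2R1 arrays, 0.19, 0.33, 0.42 and -0.03 on the T3R1 arrays and 0.65, -1.48, -1.88 and -1.48 on the control arrays. The T3R1 arrays and control replicate 1 lay above all other arrays, which spread over almost 2 log2 units. Sqle was 2.98-fold higher in T3R1 than in T1R1 (log2 1.58 ± 0.52, adjusted p = 0.0413), a call lost in 6 of 8 fits without 1 array, and against T2R1 the change was 1.43 ± 0.52 (adjusted p = 0.0544). Fdft1, the squalene synthase, had log2 levels of 2.02, 1.07, 1.54 and 1.66 on the T1R1 arrays, 1.60, 1.49, 1.58 and 1.37 on the T2R1 arrays, 1.30, 1.42, 1.10 and 1.74 on the T3R1 arrays and 1.29, 1.99, 2.09 and 2.11 on the control arrays. Here control replicates 2 to 4 were at the top with T1R1 replicate 1, and control replicate 1 lay within the T3R1 range. The log2 change of Fdft1 was -0.18 ± 0.21 in T3R1 against T1R1 and -0.12 ± 0.21 against T2R1, with no call.

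Lss closes squalene epoxide into lanosterol, and the enzymes after it trim lanosterol to cholesterol. Lss was 2.03-fold higher in T3R1 than in T2R1 (log2 1.02 ± 0.37, adjusted p = 0.0541), with no overlap of the arrays and no call. Cyp51, the lanosterol demethylase, had log2 levels of -1.71, -2.04, -2.39 and -1.94 on the T1R1 arrays, -1.84, -1.57, -2.03 and -1.76 on the T2R1 arrays, -1.28, -1.22, -1.39 and -1.11 on the T3R1 arrays and -1.22, -1.84, -1.68 and -1.60 on the control arrays. The T3R1 values and control replicate 1 were the 5 highest of the 16. Cyp51 was 1.71-fold higher in T3R1 than in T1R1 (log2 0.77 ± 0.16, adjusted p = 0.00318) and 1.47-fold higher than in T2R1 (log2 0.55 ± 0.16, adjusted p = 0.0177, lost without T2R1 replicate 3).

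Dhcr7, the reductase that yields cholesterol from its dehydro precursor, had log2 levels of -1.04, -1.26, -1.82 and -1.37 on the T1R1 arrays, -1.47, -1.39, -1.40 and -1.32 on the T2R1 arrays, -0.81, -0.72, -0.76 and -0.94 on the T3R1 arrays and -0.72, -1.40, -1.31 and -1.04 on the control arrays. All T3R1 values lay above all T1R1 and T2R1 values and above control replicates 2 to 4. Its log2 change was 0.57 ± 0.16 in T3R1 against T1R1 (adjusted p = 0.0209) and 0.59 ± 0.16 against T2R1 (adjusted p = 0.0143). The first call was lost without T1R1 replicate 3 or T3R1 replicate 2, with adjusted p-values up to 0.0589, and the second held with any 1 array left out. Ebp, the sterol isomerase, averaged 4.02 ± 0.10 in T3R1 and 3.70 ± 0.14 in T1R1 on the log2 scale (SD, n = 4 each), a rise of 0.31 ± 0.08 with an adjusted p of 0.0152, which was lost without T1R1 replicate 4. The other sterol enzymes were not called. In T3R1 against T1R1 the log2 change was 0.44 ± 0.18 for Sc4mol (now Msmo1), the methyl sterol oxidase, 0.64 ± 0.23 for Nsdhl, the sterol dehydrogenase that works with it, 0.29 ± 0.16 for the sterol reductase Tm7sf2, 0.24 ± 0.15 for the sterol desaturase Sc5d and -0.22 ± 0.14 for the ketosteroid reductase Hsd17b7. Of these 5, Sc4mol and Nsdhl had all T3R1 arrays above all T1R1 and all T2R1 arrays. The 3 probes of Hsd17b7 gave values between -0.22 and -0.03 in this comparison. The second probe of Tm7sf2 was well above background on all 16 arrays and gave -0.09 (adjusted p = 0.789 over all kept probes). The direction of Tm7sf2 thus differed between its probes.

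**Figure D3:**
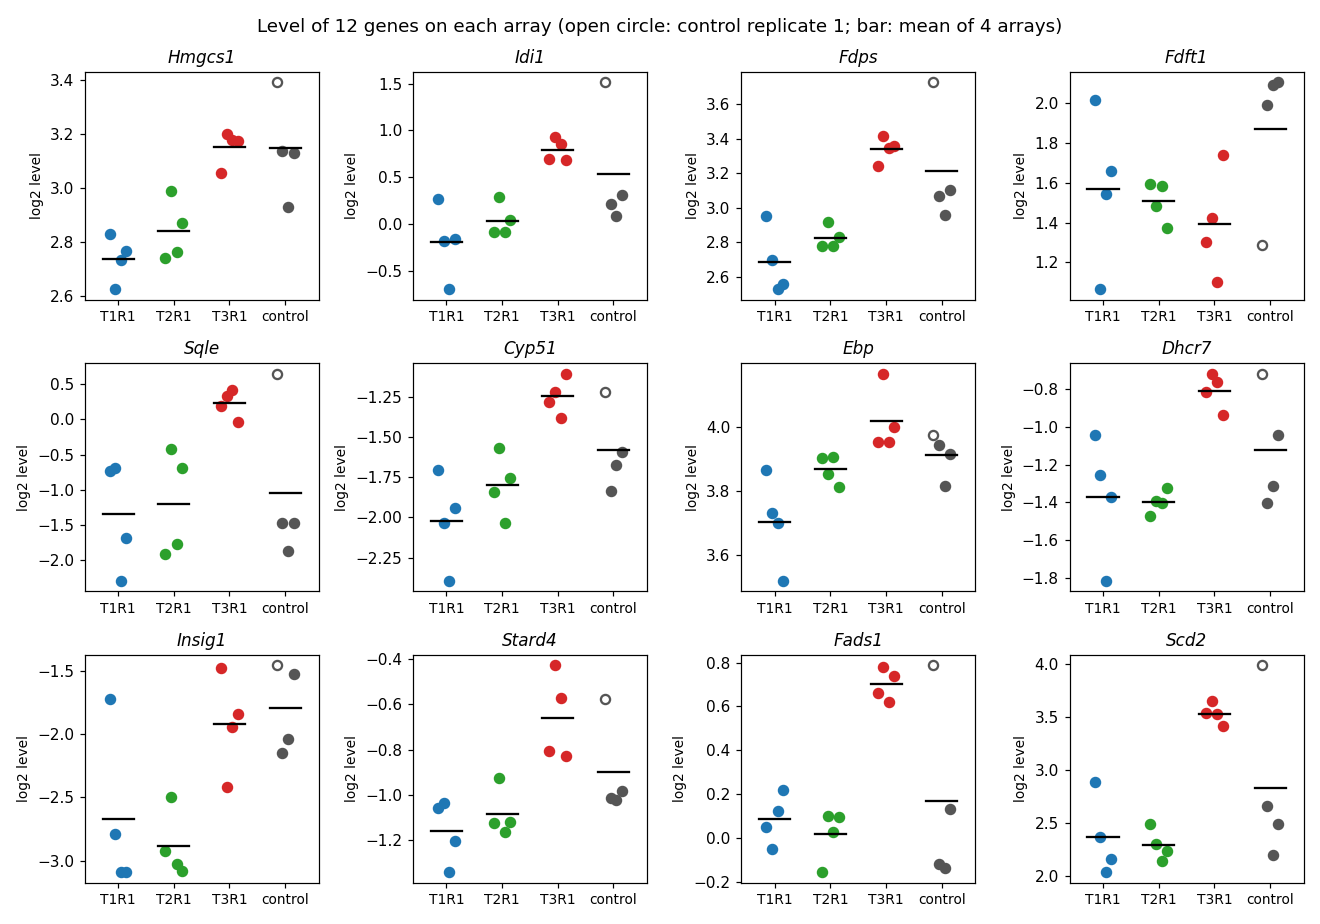
Log2 level of 12 of the 29 genes on each array of the 4 groups; points are arrays, bars are means of 4 arrays and the open circle is control replicate 1. In 10 of the 12 panels the T3R1 points lie above all T1R1 points, the exceptions being Fdft1 and Insig1.

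Among the regulators, Insig1 moved and the others did not pass the test on the probes used. Insig1, itself an SREBP target and the protein that retains Scap, had log2 levels of -1.73, -2.79, -3.09 and -3.09 on the T1R1 arrays, -2.93, -2.50, -3.03 and -3.08 on the T2R1 arrays, -1.48, -2.42, -1.95 and -1.84 on the T3R1 arrays and -1.46, -2.15, -2.04 and -1.52 on the control arrays. The 4 T2R1 arrays and T1R1 replicates 2 to 4 were the 7 lowest, and T1R1 replicate 1 was as high as the control arrays. Insig1 was 1.95-fold higher in T3R1 than in T2R1 (log2 0.96 ± 0.29, adjusted p = 0.0241), a call lost in 4 of 8 fits without 1 array. Against T1R1 its log2 change was 0.75 ± 0.29 (adjusted p = 0.0751). Its probe was dim and fell short of well above background on T1R1 replicate 3. Insig2, the constitutive relative of Insig1 in most tissues, had a log2 change of 0.00 ± 0.08 in T3R1 against T1R1, with a 95% interval of -0.16 to 0.16.

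Scap, the escort protein, had 0.10 ± 0.07 in T3R1 against T1R1 with an interval of -0.06 to 0.25. Srebf1 had 0.32 ± 0.25 and Srebf2 had 0.77 ± 0.38, neither called. Both probes of Srebf2 were dim. In T3R1 against T2R1 both had a log2 change above 0, but only 1 passed the test. The probe used gave 0.54 (adjusted p = 0.313) and the other gave 0.74 with an adjusted p of 0.00931 over all kept probes. Stard4, a carrier that moves cholesterol between membranes, had log2 levels of -1.06, -1.04, -1.34 and -1.20 on the T1R1 arrays, -1.12, -0.93, -1.16 and -1.12 on the T2R1 arrays, -0.81, -0.43, -0.57 and -0.83 on the T3R1 arrays and -0.58, -1.02, -1.02 and -0.98 on the control arrays. All T3R1 values lay above all T1R1 and all T2R1 values. Stard4 rose by 0.50 ± 0.12 in log2 against T1R1 (adjusted p = 0.0101) and by 0.42 ± 0.12 against T2R1 (adjusted p = 0.0203). The first call held with any 1 array left out, and the second was lost in 4 of 8 such fits, with adjusted p-values up to 0.0635.

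In T3R1 against T1R1 and against T2R1 the fatty acid desaturases Scd2 and Fads1 rose. Scd1 and Fasn changed in the same direction, but varied widely within groups and were not called. Scd2, a stearoyl-CoA desaturase of many tissues, had log2 levels of 2.89, 2.37, 2.04 and 2.16 on the T1R1 arrays, 2.49, 2.31, 2.14 and 2.24 on the T2R1 arrays, 3.54, 3.65, 3.53 and 3.42 on the T3R1 arrays and 3.99, 2.66, 2.20 and 2.49 on the control arrays. The 4 T3R1 arrays lay close together and above all others except control replicate 1. Scd2 was 2.25-fold higher in T3R1 than in T1R1 (log2 1.17 ± 0.30, adjusted p = 0.0118) and 2.36-fold higher than in T2R1 (log2 1.24 ± 0.30, adjusted p = 0.0069). Fads1, a desaturase of polyunsaturated fatty acid synthesis, had log2 levels of 0.05, -0.05, 0.12 and 0.22 on the T1R1 arrays, -0.16, 0.10, 0.03 and 0.10 on the T2R1 arrays, 0.66, 0.78, 0.62 and 0.74 on the T3R1 arrays and 0.79, -0.12, -0.14 and 0.13 on the control arrays. The T3R1 values and control replicate 1 were again the highest, and no other array came near them. Fads1 was 1.53-fold higher in T3R1 than in T1R1 (log2 0.62 ± 0.16, adjusted p = 0.0146) and 1.61-fold higher than in T2R1 (log2 0.68 ± 0.16, adjusted p = 0.00663). The Scd2 and Fads1 calls held with any 1 array left out. Fads2, the desaturase that acts before Fads1, had 0.74 ± 0.28 against T1R1 (adjusted p = 0.0696), with no overlap of the arrays and no call.

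Scd1 and Fasn varied widely between hearts of one group. Scd1, the stearoyl-CoA desaturase of liver and fat, had log2 levels of 4.12, 0.37, -0.17 and 0.50 on the T1R1 arrays, 2.71, 2.66, 2.38 and 0.22 on the T2R1 arrays, 4.40, 2.60, 3.64 and 4.19 on the T3R1 arrays and 5.50, 2.84, 2.47 and 4.33 on the control arrays. Fasn, the fatty acid synthase, had log2 levels of 1.57, -1.996, -2.05 and -2.54 on the T1R1 arrays, 0.29, 0.25, 0.34 and -2.21 on the T2R1 arrays, 1.88, 0.18, 1.15 and 1.96 on the T3R1 arrays and 2.78, 0.21, -0.16 and 1.57 on the control arrays. For both genes T1R1 replicates 2 to 4 and T2R1 replicate 4 were the 4 lowest arrays, and T1R1 replicate 1 stood with the high ones. The log2 change in T3R1 against T1R1 was 2.50 ± 0.91 for Scd1 (adjusted p = 0.0625) and 2.55 ± 0.90 for Fasn (adjusted p = 0.0551). Neither gene was called in any of the 6 comparisons. Without T1R1 replicate 1 both were called, with changes of 3.47 for Scd1 and 3.49 for Fasn.

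The adipocyte hormone gene Adipoq had log2 levels of 2.34, -1.02, -2.01 and -0.89 on the T1R1 arrays, 1.38, 0.89, 1.12 and -1.14 on the T2R1 arrays, 2.67, 1.61, 1.30 and 2.60 on the T3R1 arrays and 3.74, 1.16, 1.57 and 3.51 on the control arrays, and its 4 lowest arrays were the same 4 as for Scd1 and Fasn. The brown fat gene Ucp1 had levels of 2.63, -1.84, -4.94 and -6.11 on the T1R1 arrays and 3.32, 1.45, 3.91 and -2.01 on the T2R1 arrays, and 1.71 or more on every T3R1 and control array. Of 16 adipocyte markers, all 16 were measured and between 12 and 16 were well above background on a T1R1 array, with 16 on every array of the other groups. Not every marker followed Adipoq. Lep was lowest on control replicate 3, at -4.03, and Otop1 was highest on T1R1 replicate 2, at 0.1. Cox7a1 and Cox8b were lowest on control replicate 1, at 8.83 and 8.1. The sum of the 16, on the linear scale and led by Cox7a1 and Cox8b, which heart muscle also expresses, ran from 1140 to 1610 in T1R1, 1240 to 1470 in T2R1, 1020 to 1330 in T3R1 and 1200 to 2050 in control. The part of adipose tissue in the Scd1 and Fasn values was not tested, and in whole-heart RNA fewer cells of a type and less RNA per cell cannot be told apart.

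Sums of macrophage, fibroblast and nerve markers moved with the sterol genes. Those of cardiomyocyte, endothelial and atrial markers did not. The sum of 7 measured macrophage markers of 8 listed was 63.6 to 76.3 on the T3R1 arrays, against 41.5 to 50.2 in T1R1 and 42.4 to 51.1 in T2R1, and it was 80.2 on control replicate 1. The 7 fibroblast markers summed to 546 to 686 in T3R1, 255 to 297 in T1R1 and 349 to 377 in T2R1, with 498 on control replicate 1. Collagen genes led the rise of this sum. In T3R1 against T1R1 the log2 change was 2.57 for Col1a1, 2.22 for Col1a2 and 2.62 for Col3a1. It was 0.72 for Lum, 0.58 for Tcf21, 0.35 for Pdgfra and 0.17 for Dcn. The sum of 12 nerve and Schwann cell markers of 13 listed, led by Pmp22 and Mal, was 28.3 to 30.9 in T3R1, 18.4 to 24.3 in T1R1 and 22 to 27 in T2R1, with 32.8 on control replicate 1. The 14 cardiomyocyte markers summed to 7120 to 9480 in T3R1, 8930 to 9900 in T1R1 and 9230 to 10900 in T2R1, with 5700 on control replicate 1. The 6 endothelial markers summed to 84.3 to 97.7 in T3R1, 95.9 to 110 in T1R1 and 93.1 to 101 in T2R1, with 94.9 on control replicate 1. The 6 atrial markers summed to 499 to 653 in T3R1, 404 to 702 in T1R1 and 386 to 760 in T2R1, with 490 on control replicate 1. All macrophage and fibroblast markers that were measured were well above background on every array. Single arrays stood out in other lists. The sum of 4 measured thymocyte markers of 7 listed was 8.67 on T1R1 replicate 1 and 1.15 to 1.35 on the other T1R1 arrays. The sum of 9 measured hepatocyte markers of 11 listed was 74.5 on T1R1 replicate 4, 35.4 on T3R1 replicate 1 and 27.5 on T2R1 replicate 1. It was 4.29 to 15.5 on all other arrays. The part of these cell types in the sterol gene values was not tested.

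**Figure D4:**
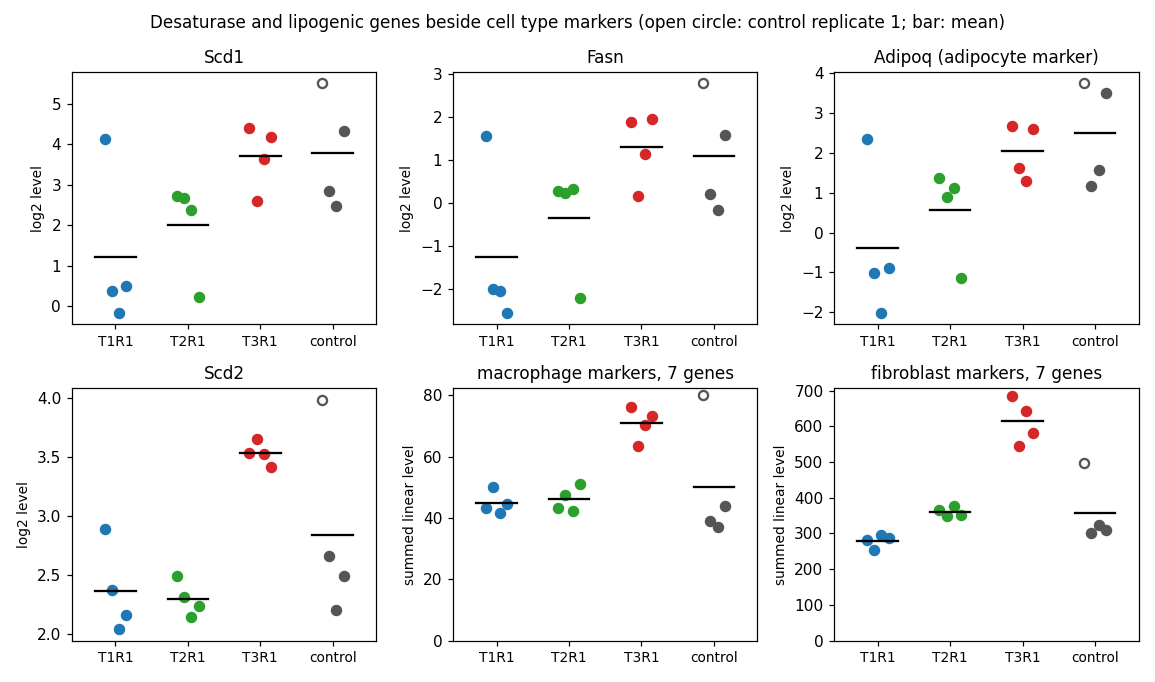
Log2 levels of Scd1, Fasn, the adipocyte marker Adipoq and Scd2, and the summed linear levels of 7 macrophage and 7 fibroblast markers, on each array of the 4 groups; bars are means and the open circle is control replicate 1. Scd1, Fasn and Adipoq share their 4 lowest arrays, and Scd2 and the 2 marker sums are high on the T3R1 arrays and on control replicate 1.

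The comparison of T3R1 with control, made within a slide, depended on control replicate 1. With all 4 control hearts 0 of the 29 genes were called by limma, where 0.693% of all genes were, and 7 had an unadjusted p below 0.05, against 22.5% of all genes. Without control replicate 1, 14 of the 29 rose and 1 fell, where 10.2% of all genes rose and 19.2% fell. All T3R1 arrays then lay above the 3 remaining control arrays for 15 genes, against 14.4% of all genes. Control replicate 1 was singled out after seeing the data, in part because these genes were high on it. Leaving out a high control array favours a rise in T3R1, so the calls without it are not independent evidence of one. The median log2 fold change of the 29 was 0.13 with and 0.30 without that array, while that of all genes was -0.08 with and -0.13 without it. The macrophage and fibroblast sums moved with these genes here as well. On control replicates 2 to 4 the macrophage markers summed to 38.9, 37.1 and 44 and the fibroblast markers to 300, 324 and 311, all below the T3R1 arrays. The endothelial markers summed to 138, 131 and 126 there, above the T3R1 arrays. The part of these cell types in the result was not tested.

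The 14 genes that rose without control replicate 1 were Mvd, Idi1, Fdps, Sqle, Lss, Cyp51, Sc4mol, Nsdhl, Dhcr7, Srebf2, Stard4, Fads1, Fads2 and Scd2. Of these, 8 had also been called against T1R1 or T2R1, in comparisons that use the same T3R1 arrays. Fads1 rose by 0.74 ± 0.10 in log2 (SE, adjusted p = 0.000249), against 0.53 ± 0.16 with all control arrays (adjusted p = 0.093). Sqle rose by 1.84 ± 0.41 (3.57-fold, adjusted p = 0.0056), against 1.27 ± 0.52 with all control arrays. Srebf2, whose probe was dim, rose by 1.44 ± 0.28 (adjusted p = 0.00251), and its levels were -1.25, -1.40, -1.76 and -2.40 in T3R1 and -1.38, -3.14, -3.03 and -3.26 in control. The second probe of Srebf2, also dim, gave 0.47 without control replicate 1 (adjusted p = 0.059 over all kept probes) and 0.32 with all control arrays (adjusted p = 0.328), so it did not pass the test. On the probe used, the value of control replicate 1, the first of the 4, was in the T3R1 range or above it, as it was for Sqle.

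Fdft1 was the gene that fell, by 0.67 in log2 (adjusted p = 0.0164), and its log2 change with all control arrays was -0.48 ± 0.21. Hmgcs1, called against T1R1 and T2R1, had a log2 change from control of 0.09 ± 0.09 without the array and 0.01 ± 0.10 with it. Insig1 likewise had -0.02 ± 0.31 without it and -0.13 ± 0.29 with it. Mvd had all T3R1 arrays above all 4 control arrays, the 1 gene of the 29 to do so (3.18% of all genes), with a log2 change of 0.27 ± 0.08 and an adjusted p of 0.0933.

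**Figure D5:**
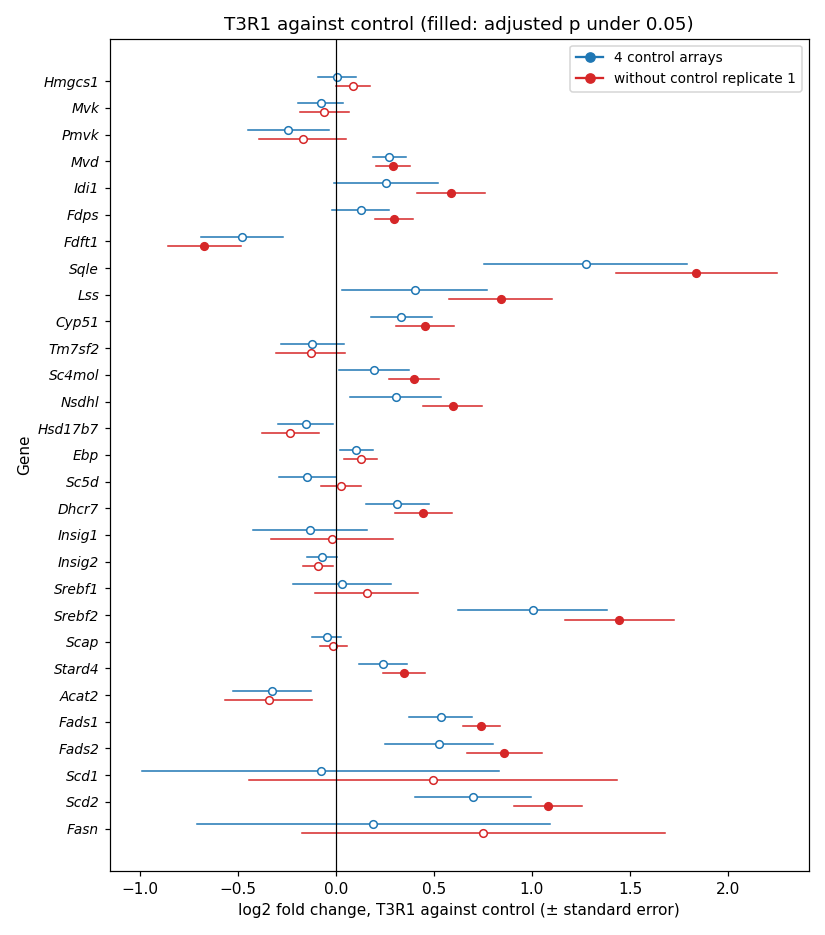
Log2 fold change of each of the 29 genes in T3R1 against control, with standard errors, with all 4 control arrays (blue) and without control replicate 1 (red); filled points have an adjusted p below 0.05. No blue point is filled, and 15 red points are, of which Fdft1 lies left of 0.

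After 1 and 2 days of exposure the genes tended to lie below control. In T1R1 against control 2 of the 29 fell and 0 rose, where 2.1% of all genes fell and 7.75% rose, and 26 of the 29 log2 changes were below 0. Their median was -0.33, while that of all genes was -0.01. The 2 were Hmgcs1, lower by 1.33-fold (log2 -0.41 ± 0.10, adjusted p = 0.0172), and Fdps, lower by 1.44-fold (log2 -0.53 ± 0.14, adjusted p = 0.0312). Without control replicate 1 both were still called, with log2 changes of -0.33 for Hmgcs1 and -0.36 for Fdps, where 9.67% of all genes fell, the median of the 29 was -0.17 and 23 of the 29 changes were below 0. Neither call was stable to the processing: Hmgcs1 was lost with quantile normalization (adjusted p = 0.074), with normexp background (0.158), in the authors' values (0.266) and with only these 2 groups in the fit (0.107). Fdps was lost with quantile normalization (0.095), in the authors' values (0.0514), with no filter on dim probes (0.0565) and with only these 2 groups (0.167). Without T1R1 replicate 1 the calls numbered 9, adding Mvk, Pmvk, Cyp51, Tm7sf2, Insig1, Scd1 and Fasn, all lower. They numbered 1 without control replicate 4 or any one of T1R1 replicates 2 to 4, when Fdps was lost. With all arrays the second probe of Pmvk gave -0.70 (adjusted p = 0.0406 over all kept probes). That of Tm7sf2 gave -0.04 (adjusted p = 0.928), against -0.41 on the probe used.

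In T2R1 against control 2 of the 29 fell and 0 rose, where 3.59% of all genes fell and 14.8% rose, and the median of the 29 was -0.22 against 0.02 for all genes. Insig1 was lower by 2.13-fold (log2 -1.09 ± 0.29, adjusted p = 0.0171), with every T2R1 array below every control array, as for 6.34% of all genes and 6 of the 29. Among the fits without 1 array, the call of Insig1 was lost only without T2R1 replicate 4. Hmgcs1 fell by 0.31 in log2 (adjusted p = 0.0413), a call lost in 6 of 8 fits without 1 array, the fit without control replicate 1 among them, and also with quantile normalization (0.121), with normexp background (0.341), in the authors' values (0.471), with no filter on dim probes (0.0813) and with only these 2 groups (0.123). Without control replicate 1, where 9.38% of all genes fell and 15% rose, Insig1 fell by 0.98 and Fdft1 by 0.55 in log2. The probe used for Srebf2 then gave 0.91 (adjusted p = 0.0326), against 0.47 with all control arrays, while its second probe gave -0.27 without that array (adjusted p = 0.272 over all kept probes) and -0.42 with it, so the direction of Srebf2 differed between its probes. The median of the 29 was -0.16 without that array, and all T2R1 arrays lay below the remaining control arrays for 7 of the 29, against 20.8% of all genes. The calls numbered 0 without T2R1 replicate 4, 1 without control replicate 2, control replicate 4, T2R1 replicate 1 or T2R1 replicate 3, and otherwise 2 or 3.

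Over all 4 groups the moderated F test called 9 of the 29 genes, where 26.9% of all genes were called. They were Hmgcs1 (adjusted p = 0.00863), Fdps (0.00879), Cyp51 (0.0105), Scd2 (0.0181), Fads1 (0.0184), Insig1 (0.0215), Stard4 (0.0261), Dhcr7 (0.0347) and Idi1 (0.037). The share of the 29 that this test called was thus close to that of all genes. The count was 17 without control replicate 1, 15 without T1R1 replicate 1 and 4 without T3R1 replicate 2. The share of all genes called in those fits is not set beside these counts.

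Related genes were taken from 5 lists written for these data with earlier results known. Of 16 measured genes of sterol uptake, transport and storage, 4 rose and 0 fell in T3R1 against T1R1, where 7.63% of all genes rose and 15.3% fell. Against T2R1 4 rose and 0 fell, where 6.57% of all genes rose and 20.4% fell. The median log2 change of the 16 was 0.04 against T1R1 and 0.10 against T2R1. Lipa, the lysosomal acid lipase that frees cholesterol from lipoproteins, rose by 0.61 ± 0.11 against T1R1 (adjusted p = 0.00189) and by 0.46 ± 0.11 against T2R1 (adjusted p = 0.00826). Lrp1, an endocytic receptor for lipoproteins and other ligands, rose by 0.54 ± 0.10 against T2R1 (adjusted p = 0.0012), and Npc2, which carries cholesterol out of the lysosome, by 0.33 ± 0.11 (adjusted p = 0.0438). Soat1, which esterifies cholesterol for storage, rose by 1.10 ± 0.32 against T1R1 (adjusted p = 0.023). Its probe was dim, with a mean level of -3.26. Stard5, another sterol carrier, rose by 0.60 ± 0.16 against T2R1 (adjusted p = 0.0108). Lipa and Lrp1 were also higher on control replicate 1 than on the other control arrays, at 1.34 against 0.87, 0.80 and 1.09 for Lipa.

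The liver X receptors turn on genes of sterol export when sterols are plentiful. Of 11 measured genes of that list, 1 rose and 4 fell in T3R1 against T1R1, and 1 rose and 3 fell against T2R1. Among all genes 7.63% rose and 15.3% fell in the first comparison and 6.57% rose and 20.4% fell in the second, so counts this small on 11 genes are given as a description of the genes named. Abcg1, a sterol exporter, was the one that rose, by 0.57 ± 0.16 against T2R1 (adjusted p = 0.0149). Rxra, the partner of the receptors, fell, with a log2 change of -1.03 ± 0.18 (adjusted p = 0.00107), and Nr1h3, one of the receptors, had -0.28 ± 0.10 (adjusted p = 0.0434). Cyp46a1, which hydroxylates cholesterol, had -0.73 ± 0.14 against T2R1 (adjusted p = 0.00183) and rose by 0.71 ± 0.14 in T2R1 against control (adjusted p = 0.00347), where Rxra rose too, by 0.57 ± 0.18 (adjusted p = 0.0444), in a comparison where 14.8% of all genes rose. Without control replicate 1 the change was 0.57 for Cyp46a1 (adjusted p = 0.00517) and 0.38 for Rxra (adjusted p = 0.0788), so the call of Rxra was lost. Mylip, which marks lipoprotein receptors for breakdown, had -0.42 ± 0.12 in T3R1 against T1R1 (adjusted p = 0.0234).

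In the list of sterol sensing and SREBP processing 14 genes were measured, and 1 rose in T3R1 against T1R1 (7.63% of all genes) and 3 against T2R1 (6.57% of all genes), with 0 falling. Pgrmc1, a membrane heme protein that binds Insig1 and Scap, rose by 0.56 ± 0.13 against T1R1 (adjusted p = 0.0089) and by 0.51 ± 0.13 against T2R1. Nfya, a subunit of NF-Y, rose by 0.45 ± 0.14 against T2R1 (adjusted p = 0.0264), and Erlin2, which takes part in the degradation of sterol-regulated proteins, by 0.37 ± 0.12 (adjusted p = 0.0388). Erlin2 and Sp1 fell in T2R1 against control, with log2 changes of -0.40 ± 0.12 and -0.29 ± 0.09, where 3.59% of all genes fell. Both calls were lost without control replicate 1, with -0.30 for Erlin2 (adjusted p = 0.068) and -0.20 for Sp1 (adjusted p = 0.0608). Of 18 further genes of fatty acid synthesis, 2 rose and 1 fell in T3R1 against T1R1, where 7.63% of all genes rose and 15.3% fell. Acsl3, an acyl-CoA synthetase, rose by 0.65 ± 0.19 (adjusted p = 0.023) and Pnpla3, a lipase induced by SREBPs, by 1.20 ± 0.39 (adjusted p = 0.0394), while Mid1ip1, an activator of acetyl-CoA carboxylase, had -0.52 ± 0.13 (adjusted p = 0.0096). The 4 lowest arrays of Pnpla3 were the same as for Adipoq, T1R1 replicates 2 to 4 at -3.30, -3.30 and -3.36 and T2R1 replicate 4 at -2.71, and the part of adipose tissue in its values was not tested. Against T2R1, Acsl3 rose while Acacb, an acetyl-CoA carboxylase, and Mlxipl, a transcription factor of glycolysis and lipogenesis, fell, with log2 changes of -0.46 ± 0.14 and -0.42 ± 0.15. In T1R1 against control Pnpla3 fell, with -1.38 ± 0.39 (adjusted p = 0.039), a call lost without control replicate 1 (log2 -1.12, adjusted p = 0.0652).

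Among 11 genes of the isoprenoid branch that uses the product of Fdps, 2 rose in T3R1 against T1R1, Fntb with 0.41 ± 0.14 and Pggt1b with 0.41 ± 0.12, which are subunits of the enzymes that attach isoprenoids to proteins. Among all genes 7.63% rose in that comparison. Pggt1b fell in T1R1 and in T2R1 against control, with log2 changes of -0.51 ± 0.12 and -0.37 ± 0.12, where 2.1% and 3.59% of all genes fell, and both calls held without control replicate 1 (adjusted p = 0.0138 and 0.0315). Icmt, the methyltransferase that finishes prenylated proteins, fell in T3R1 against T2R1, with -0.72 ± 0.20 (adjusted p = 0.0161). In the list of sterol uptake, transport and storage the only call against control was Cav1, the caveolin of membrane caveolae, which had -0.32 ± 0.10 in T2R1 (adjusted p = 0.0357) and -0.40 without control replicate 1 (adjusted p = 0.00846).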

How the data were processed

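Heart RNA labelled with Cy3 was read on 16 1-colour Agilent arrays. Per the file headers, the processed intensity was made with Feature Extraction 10.7.3.1, with background subtracted within each array; mean spot intensity and median local background are uncorrected readings, and other columns hold quality flags of 0 or 1. The table of log2 values that the authors deposited was used as an alternative; its column medians were 6.10, its ranks within an array equal those of the mean spot intensity, and the sources used here do not say how it was normalized.

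Outlier spots were left out, log2 processed intensity was scaled by subtracting the 75th percentile of each array, and spots of a probe were averaged. Of 55681 probes, 31390 were kept because all 4 arrays of some group read them well above background. A gene name took the kept probe of highest mean, giving 22648 names, for which 102 values were missing, none of them in the genes described here. Models were fitted with limma 3.58.1 in R 4.3.3 over the 4 groups, with 12 residual and 2.26 prior degrees of freedom, two-sided tests and Benjamini-Hochberg adjustment at 0.05. In simulated T3R1 against T1R1 data, 66.6% of changes of 1 and 25.4% of changes of 0.5 in log2 were recovered, and 3.77% of calls were false. Each draw changed 200 of 22648 genes, with independent normal noise and no slide effect. These shares therefore do not carry over to the real comparison, where slide and group cannot be told apart and more genes were called. The precision is limited by the 4 arrays per group. The genes and lists were chosen with earlier results of these data known. All 29 genes are named; list genes are named where called, and per-array values are given for called genes. The number of columns of per-sample values not used was 0.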

Additional observations from a re-analysis of the deposited data

Results flagged for a closer look

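In each of the 116 sets of 4 arrays (29 genes in 4 groups), a value was singled out where its gap to the nearest other value as a share of the whole range exceeded Dixon's 95% critical value for 4 values, which chance does in about 1 in 20 such sets. This picked 14 values, or 12.1% of the sets, and 7 of the 14 were in control replicate 1. There, Idi1 was at 1.52 on the log2 scale, Sqle at 0.65, Sc4mol at 2.34, Nsdhl at -0.44, Srebf2 at -1.38 and Stard4 at -0.58, all above the other 3 control arrays, and Fdft1 at 1.29 was below them. In T1R1 replicate 1, Scd1 at 4.12, Fasn at 1.57 and Lss at -1.95 were far above the other T1R1 arrays. In T2R1 replicate 4, Scd1 at 0.22 and Fasn at -2.21 were far below the other T2R1 arrays. The remaining values were Hmgcs1 at 3.05 in T3R1 replicate 1, below the others by 0.12, and Mvd at -0.26 in T2R1 replicate 2, above the others by 0.08; both sets span a narrow range.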

How the results depend on the processing

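No call of the 29 genes turned its direction under any alternative. Centring each array on its median in place of the 75th percentile shifted the median of all genes by -0.43 in T1R1 and -0.39 in T2R1 against control, and by 0.40 and 0.36 in T3R1 against T1R1 and T2R1. The medians of all genes were then -0.44, -0.37, 0.33 and 0.26, and those of the 29 genes -0.77, -0.60, 0.91 and 0.78. Under it 21, 17, 25 and 19 of the 29 genes were called in these 4 comparisons, and 26 by the F test. Of all 22648 genes, 10687, 9102, 8746 and 7683 were then called in the 4 comparisons, and 12686 by the F test. With the 75th percentile these numbers were 2231, 4167, 5183 and 6104, and 6085 by the F test. The calls among the 29 genes thus rose together with those among all genes. Of the 29 genes, 1 was called in T1R1 against control with normexp background or with no filter on dim probes. There, 4 were called with an intensity trend and 0 with only the 2 groups in the fit. Of all genes, 1102 were called there with normexp background, 1891 with no filter on dim probes and 2155 with an intensity trend. In T2R1 against control 1 was called with quantile normalization or with no filter. In T3R1 against T2R1 14 were called in the authors' values and 14 with only the 2 groups in the fit. For these 2 comparisons, and for the fits with only 2 groups, the calls among all genes are not set beside the counts. Those counts show only how the calls depend on the setting. Counts under the other settings were within 1.5 times, apart from those without 1 array and with the replicate block, given below. An equal count did not mean the same genes: the 2 genes called in T1R1 against control were Cyp51 and Insig1 with quantile normalization and in the authors' values, in place of Hmgcs1 and Fdps.

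With each array left out in turn, the count ran from 1 to 9 in T1R1 against control, 0 to 3 in T2R1 against control, 0 to 15 in T3R1 against control, 7 to 16 in T3R1 against T1R1, 4 to 9 in T3R1 against T2R1 and 4 to 17 in the F test, and it stayed at 0 in T2R1 against T1R1. The calls among all genes can move as well. In T3R1 against control 0.693% of all genes were called with all arrays. Without control replicate 1, 10.2% rose and 19.2% fell.

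The related genes called against control, and each probe of Srebf2, were also fitted without control replicate 1, a setting chosen after seeing the data: 4 of those 8 calls were lost, those of Pnpla3, Erlin2, Rxra and Sp1.

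The labels give no pairing of animals, and for only 5 of 16 arrays did the closest array of another group carry the same replicate number. With the replicate number as a block, 4 genes were called in T1R1 against control, 1 in T2R1 against control, 13 in T3R1 against T1R1 and 10 in T3R1 against T2R1. Of all genes, 2256 were called under the block in T1R1 against control, and the other comparisons have no such number beside them. As the arrays share only a number, a call lost under the block is not read as a weaker effect.

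Insig1, Srebf2 and Fads2 were not well above background on 1 T1R1 array, and their low levels are the least certain. A further probe each of Hmgcs1, Fdft1, Stard4 and Fads2 was too dim to be kept. Adjacent family members such as Scd1 and Scd2 were read by 1 probe each, and cross-hybridisation was not tested.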
